A study of Mus musculus with 16 samples.

Results

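The regions described here had a significant peak in spleen and in lung, and no listed peak in any other tissue of a mouse ATAC-seq survey. ATAC-seq uses the Tn5 transposase to cut accessible DNA, so that tags pile up where chromatin is open. The 2025 regions were chosen on their measured q values, by merging the significant regions of all 16 libraries at 1 bp of overlap. Each merged region had to hold a region with −log10 q of at least 2 in both spleen and both lung libraries and to be touched by no listed peak of the other 12 libraries. They are 2025 of 760105 merged regions, and 3.86% of the 52460 merged regions that were significant in all 4 spleen and lung libraries. Because the q values made the choice, presence in spleen and lung and absence elsewhere are descriptions and were not tested on the same libraries.

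All libraries came from male C57BL/6 wild-type mice acquired at 12 weeks of age. Mice had food throughout (fed) or were fasted for 24 h before tissue collection (fasting), and frozen tissue of 3 mice per state was pooled in equal parts before nuclei were isolated. Beside spleen and lung, the 8 tissues were heart, kidney, liver, muscle, and white and brown adipose tissue. Each tissue and state gave 1 library, so there were no biological replicates and no spread between animals could be estimated.

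Spleen is a lymphoid organ that filters blood and holds B cells, T cells and macrophages, while lung combines airway epithelium, a dense capillary endothelium and resident and passing leukocytes. In leukocytes, accessible regions are set up by transcription factors of the ETS family such as PU.1, by RUNX factors and by interferon regulatory factors, each of which recognises a short DNA motif. In whole tissue, a lower signal from fewer cells of a type and from less accessible DNA per cell cannot be told apart. The tissue labels were checked on promoters (within 3000 bp of a coding start), scored by the rank of the strongest peak, where 100 is the strongest of a library. A list of 12 B cell genes averaged a rank of 94 in spleen, 77.5 in lung and 45.9 in heart, the next tissue. A list of 12 lung epithelium genes averaged 83 in lung and 52.7 in heart, the next tissue, and 43.6 and 44.3 in fed and fasting spleen. All 11 leukocyte lists ranked highest in spleen, and 8 of them had lung second. White adipose was second for the macrophage, neutrophil and innate receptor lists, at 52.6, 44.5 and 75.2, against 41.3, 34.6 and 72.9 in lung.

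Sequences of 7 of these regions are shown first, because the letters they hold recur in the results below. They were picked after their values were seen, to show ETS and RUNX matches beside genes of different leukocyte and endothelial lists. Nek6, which is in none of the lists, was taken from the strongest promoter regions. Each line gives the plus strand of GRCm38 (RefSeq GRCm38.p6) for 201 bp centred on the summit, named by the gene whose coding start is nearest. Capitals mark matches, on either strand, to GAGGAAGT (the PU.1 type of ETS site), AGGAAGT (the ETS core, which lies inside the former) and TGTGGTT (RUNX).
Ebf1 region, chr11:44950484-44950684: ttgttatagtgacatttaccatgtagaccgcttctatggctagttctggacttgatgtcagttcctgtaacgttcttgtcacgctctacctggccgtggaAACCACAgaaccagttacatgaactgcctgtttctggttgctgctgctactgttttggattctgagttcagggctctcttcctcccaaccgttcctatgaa
Il7r region, chr15:9529767-9529967: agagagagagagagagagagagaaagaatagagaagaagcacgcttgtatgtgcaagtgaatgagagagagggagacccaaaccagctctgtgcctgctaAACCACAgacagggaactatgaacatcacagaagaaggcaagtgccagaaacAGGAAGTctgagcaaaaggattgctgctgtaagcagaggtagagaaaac
Bcl11b region, chr12:107993113-107993313: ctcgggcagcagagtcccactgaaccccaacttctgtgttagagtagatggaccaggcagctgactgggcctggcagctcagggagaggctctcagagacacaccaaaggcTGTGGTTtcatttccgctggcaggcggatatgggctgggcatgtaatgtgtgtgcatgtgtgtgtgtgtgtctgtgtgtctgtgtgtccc
Id2 region, chr12:25311804-25312004: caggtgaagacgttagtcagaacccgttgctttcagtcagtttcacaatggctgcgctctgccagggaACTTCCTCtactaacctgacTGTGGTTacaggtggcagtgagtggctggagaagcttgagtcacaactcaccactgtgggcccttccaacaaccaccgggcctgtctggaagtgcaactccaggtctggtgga
Irf8 region, chr8:120760299-120760499: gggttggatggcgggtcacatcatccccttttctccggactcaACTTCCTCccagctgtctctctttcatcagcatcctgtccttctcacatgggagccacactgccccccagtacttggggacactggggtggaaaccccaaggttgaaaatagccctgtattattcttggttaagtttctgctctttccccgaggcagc
Vwf region, chr6:125594952-125595152: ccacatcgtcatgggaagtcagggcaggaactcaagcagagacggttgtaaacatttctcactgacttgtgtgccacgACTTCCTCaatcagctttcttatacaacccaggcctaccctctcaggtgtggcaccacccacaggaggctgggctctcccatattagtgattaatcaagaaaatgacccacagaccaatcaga
Nek6 region, chr2:38514573-38514773: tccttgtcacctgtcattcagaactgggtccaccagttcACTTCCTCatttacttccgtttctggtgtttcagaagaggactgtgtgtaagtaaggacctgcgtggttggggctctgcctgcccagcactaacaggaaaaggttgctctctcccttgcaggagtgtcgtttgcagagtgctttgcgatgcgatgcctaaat

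The Il7r region, 32 bp from the start of the interleukin 7 receptor gene, held an ETS core match and a RUNX match, while the Ebf1 and Bcl11b regions, in introns of B lineage and T lineage transcription factors, held 1 RUNX match each. The Irf8, Vwf and Nek6 regions each held a PU.1 match on the minus strand. The region named for Id2 held PU.1 and RUNX matches together but lay 214764 bp from the Id2 start, so the nearest gene is only a label for it.

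Ranks of the 2025 regions were high in spleen and lower in lung. In fed spleen they ran from 12.9 to 99.2 with a median of 82.4, and in fasting spleen from 0.104 to 99.2 with a median of 82.9. In fed lung the ranks ran from 0.196 to 93.8 with a median of 55.9. In fasting lung they ran from 0.0168 to 96.3 with a median of 35.1. Median fold enrichment over the local background, the ratio deposited with each peak, was also higher in spleen, at 4.99 in fed and 4.62 in fasting spleen, 3.56 in fed lung and 3.07 in fasting lung. Each rank is relative to the list of its library. The lists of fed spleen, fasting spleen, fed lung and fasting lung held 231705, 225899, 160424 and 157435 regions. In that order, the median −log10 p was 15.2, 14.7, 14.3 and 7.96. Median tags at the summit were 35, 37, 49 and 30, against library backgrounds of 3.2, 3.35, 8.92 and 7.14. Fed lung was therefore close to spleen by p, though not by rank. In fasting lung 1477 of the 2025 regions (72.9%) ranked under 50, against 800 in fed lung, 270 in fasting spleen and 229 in fed spleen. The 50435 other regions that were significant in all 4 libraries but also had a peak elsewhere had median ranks of 87.5, 86.7, 81.7 and 77.8 in fed spleen, fasting spleen, fed lung and fasting lung. The rank was higher in spleen than in lung, averaged over the states, for 1843 regions (91%), and both spleen ranks exceeded both lung ranks for 1632.

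**Figure D1:**
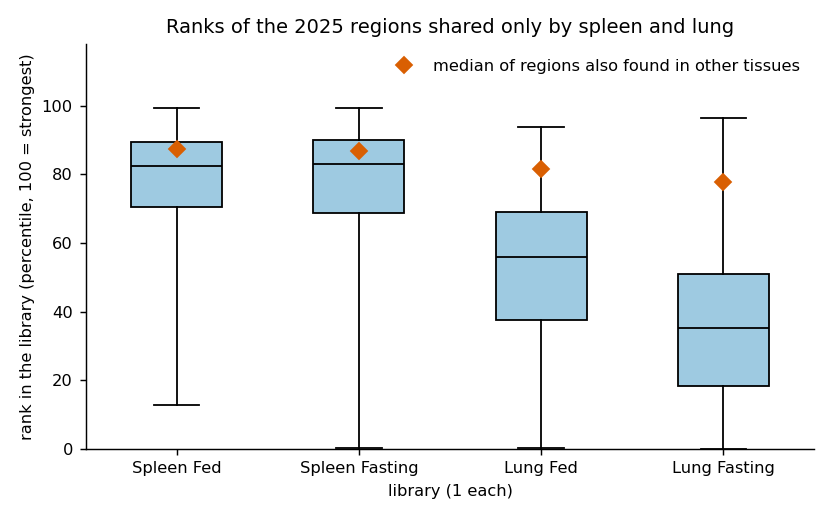
Rank of the regions shared only by spleen and lung in each of the 4 libraries (percentile, 100 is the strongest region of the library). Boxes span the quartiles with the median as a line, whiskers reach the lowest and highest region, and diamonds give the median of the 50435 regions also found in other tissues. The median falls from 82.4 and 82.9 in spleen to 55.9 and 35.1 in lung.

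Among the 28 pairs of tissues treated by the same rule, spleen and lung ranked 3 by number of regions. Liver and kidney shared 3891 regions found nowhere else, brown and white adipose shared 2896, spleen and lung 2025, and muscle and heart 1379. Most regions significant in all 4 spleen and lung libraries were general, since 31217 of the 52460 (59.5%) had a peak in all 6 other tissues. A further 2783 had a peak in exactly 1 other tissue. White adipose was that tissue for 784 of them, more often than liver (557), muscle (509), heart (490), kidney (281) or brown adipose (162).

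Absence was only as strong as each list allowed. The lists were cut to nearly equal lengths of 298996 to 299529 rows, and the fed brown adipose list already ended at −log10 q 5.26. A region at background level entered the other 12 lists from a fold enrichment of 2.06 to 3, depending on the library. In fed spleen 91.7% of the 2025 regions exceeded a fold of 3, in fasting spleen 88.7%, in fed lung 69.2% and in fasting lung 53.4%. A total of 848 regions (41.9%) exceeded it in all 4 libraries. Closest inside the threshold was an intronic region of Lnx2 at chr5:147049689-147050132, with −log10 q of 2.0286 in fed spleen. Closest outside was a region nearest to Zfp395 at chr14:65352170-65352354, at 1.9994 in fed spleen.

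Whether the sharing recurred in libraries that had no part in the choice was examined between the states. Regions chosen on the 8 fed libraries alone numbered 11353. Of these, 78.6% were significant in fasting spleen and 41.8% in fasting lung, against 2.1% (brown adipose) to 10.3% (white adipose) in the other 6 tissues. The mean of spleen and lung was 60.2% and that of the other tissues 4.95%, a difference of 55.3 percentage points. Regions chosen on the fasting libraries numbered 6400, and 68.5% were significant in fed spleen and 76.7% in fed lung, against 2.92% to 9.41% elsewhere. Here the means were 72.6% and 6.4%, a difference of 66.2 percentage points. The choice had already required spleen and lung to hold a peak, and the other 6 tissues to lack one, in the first state, and libraries of a tissue resemble each other. These shares are therefore a description of how far the sharing recurred, and no test was drawn from them.

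Both fasting libraries recovered 32.7% of the fed choice, against 11.3% of all merged fed regions, and 18.7% met the full rule in the fasting libraries against a background of 0.967%. In the other direction 58.8% were recovered in both fed libraries against 13%, and 34.6% met the full rule against 1.91%. The lower recovery of the fed choice came through fasting lung, where 41.8% were significant.

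**Figure D2:**
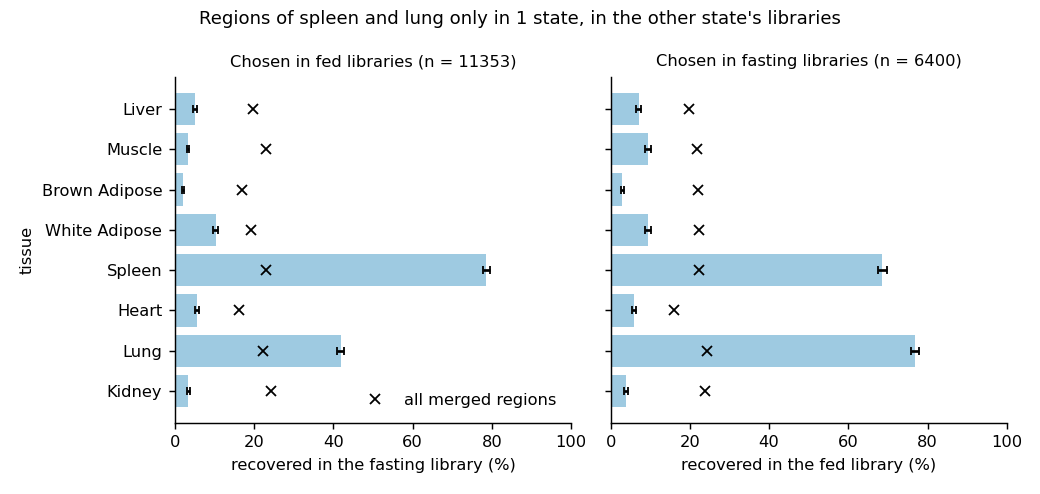
Share (%) of regions found only in spleen and lung in 1 state that were significant in each tissue's library of the other state. Bars are shares with 95% exact binomial intervals and crosses are the shares of all merged regions. Spleen and lung stand above 40% in both panels and the other 6 tissues at 10.3% or lower.

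By position, the regions were mostly distal, as merged regions in general were. Their median width was 383 bp. Of the 2025 summits, 1125 (55.6%) lay in an intron and 755 (37.3%) between genes, against 54.9% and 35.5% of all merged regions. A further 46 (2.27%) lay in untranslated and 35 (1.73%) in coding exons of the GENCODE vM21 annotation, against 3.28% and 3.13%. Only 497 (24.5%, exact binomial 95% interval 22.7 to 26.5%) lay within 3000 bp of an annotated start, close to the 23.6% of all merged regions. Regions of the 4 libraries that were also open elsewhere lay there in 46.9%. The median distance to the nearest coding start was 16767 bp, against 17905 bp over all merged regions. Of the 2025 regions, 748 (36.9%) had a neighbour of the set within 50000 bp, a count that was not compared with other sets.

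The longest run, 9 regions, crossed Ikzf1 and Fignl1 at chr11:11695364-11781961. Ikzf1 encodes Ikaros, a zinc finger factor of lymphocyte development. A run of 8 regions lay at Prkcb (chr7:122317492-122414483), the gene of protein kinase C beta in B cell receptor signalling. Runs of 6 regions lay at the Ms4a4 genes on chromosome 19 and at Ly6e and Ly6i on chromosome 15, both families of leukocyte surface proteins. A run of 5 regions covered H2-Eb1, H2-Eb2, Btnl1 and Btnl2 at chr17:34306504-34379142, in the class II part of the major histocompatibility complex, which serves antigen presentation.

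The nearest coding starts belonged to 1497 of 21911 genes (6.83%), of which 1165 had 1 region. Bach2, a repressor in B and T cells, had 10 regions, 6 of them in introns. Prkcb and Ebf1 had 8 each, and Ets1, Btg1 and Foxp1 had 7 each. Distances were large for some of these, as the strongest region assigned to Ets1 lay 787053 bp from its start.

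Of 131 annotated genes in 11 leukocyte lists, 47 (35.9%) were nearest to at least 1 region, against 6.83% of all coding genes. None of 48 hepatocyte, striated muscle, kidney and adipocyte genes was. The rule had removed every region with a listed peak in those tissues, so this absence is largely set by the choice. Because a gene far from its neighbours is nearest to more sequence, shares of regions were compared as well. Regions nearest to a leukocyte list gene made up 97 of the 2025 (4.79%, 3.9 to 5.81%), 1.29% of the regions also open elsewhere, 2.01% of the 14817 regions private to spleen, 0.745% of the 8992 private to lung and 0.859% of all merged regions. The intervals are exact binomial 95% intervals over regions and cover counting error only. The sets also differed in strength and width. Median ranks in fed and fasting spleen were 54.5 and 50.9 for regions private to spleen, against 82.4 and 82.9 for the shared regions. Median widths were 178 bp for regions private to spleen, 291 bp for those private to lung and 721 bp for those also open elsewhere. That of the shared regions was 383 bp. Shares were not compared at equal strength. The list of leukocyte transcription factors had 9 of 12 genes with 28 regions, namely Bach2, Ikzf1, Ikzf3, Runx1, Runx3, Irf4, Nfatc1, Prdm1 and Gfi1. B cell genes came next with 7 of 12 (Ebf1, Ms4a1, Fcer2a, Pax5, Cd22, Cr2 and Bank1), then pan-leukocyte genes with 6 of 12, among them Cytip with 5 regions and Ptprc, which encodes CD45, with 4.

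T cell genes had 4 of 12 (Cd247, Tcf7, Bcl11b, Il7r), as did NK and cytotoxic cell genes (Klrb1c, Klrd1, Gzmb, Tbx21). Cytokine and costimulation genes had 5 of 12, chemokine genes 4 of 12, innate receptor genes 4 of 11 and dendritic cell genes 3 of 12. Macrophage genes had 1 of 12, Adgre1, and neutrophil genes 0 of 12, while 9 and 4 of these genes had a region private to spleen, as did 30.1% of all coding genes. Outside the leukocytes, endothelium had 4 of 12 (Vwf, Cdh5, Egfl7, Pecam1), platelets 1 (Itgb3), mesenchyme 1 (Twist1) and erythroid cells 0. As a share of regions, endothelium made up 0.198% (0.0538 to 0.505%) against 0.117% of all merged regions and 0.2% of those private to lung. Dendritic cell genes made up 0.247% (0.0802 to 0.575%) against 0.0946% of all merged regions. Both intervals held the share of all merged regions. No lung epithelium gene had a shared region, while 10 of those 12 had a region private to lung, as did 21.2% of all coding genes.

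**Figure D3:**
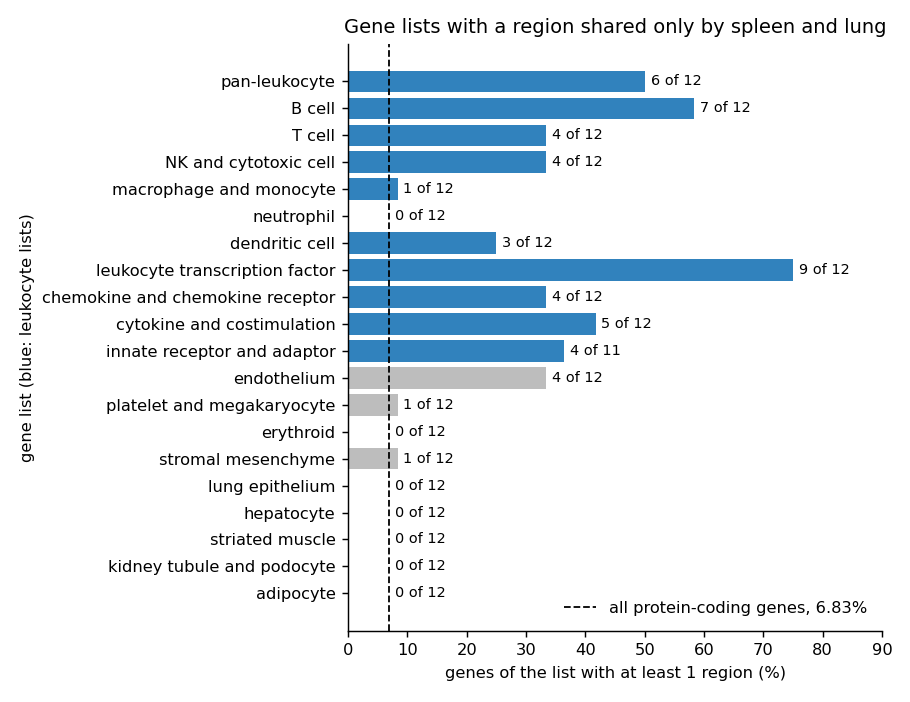
Share (%) of the genes of each list that were nearest to at least 1 region shared only by spleen and lung, with the number of genes beside each bar. Blue bars are the leukocyte lists and the dashed line is the share of all coding genes, 6.83%. Leukocyte transcription factors reach 9 of 12, and neutrophil, erythroid, lung epithelium and the left-out tissues stand at 0. For the left-out tissues this is largely set by the rule.

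The strongest region, by the mean rank over the 4 libraries, lay in an intron of Rhof, a small GTPase gene, at chr5:123128976-123129280. It ranked 98.1 and 98 in fed and fasting spleen and 89.5 and 85.4 in fed and fasting lung. Second was an intergenic region 12769 bp from Arap2, a regulator of small GTPases, at chr5:62778516-62779177, with ranks of 97.4, 98.2, 91.7 and 80.7 in the same order of libraries. The next was an intron of Prkcb (chr7:122393792-122394446), with 98, 97.8, 90.4 and 79. All of them ranked highest in spleen and lowest in fasting lung. The highest ranks in fed spleen among the 10 strongest belonged to Adgre1 and Gga2. The Adgre1 region, 9440 bp from the start of the gene for the macrophage protein F4/80 at chr17:57349154-57349592, reached 99.2, 99, 87.4 and 74.1 with fold enrichments of 15.7, 13.9, 8.19 and 6.26. Gga2, which encodes a Golgi sorting adaptor, had an intronic region 2748 bp from its start that ranked 99.2, 98.3, 83.6 and 73. The rest of the 10 were nearest to Utp14a, Slc38a1, Sycp1, Fbxo11 and Egr3, with mean ranks of 88.2 to 90.3.

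B cell regions were strong in spleen and varied in lung. The promoter region of Ms4a1, the gene for the surface protein CD20, ranked 93.2 and 95.4 in fed and fasting spleen and 72.6 and 67.2 in fed and fasting lung. The Ebf1 intron, which carries the RUNX match, ranked 97.5, 96.6, 83.8 and 50.1. Fcer2a, encoding the low-affinity IgE receptor CD23, had a region 72 bp from its start at 93.2, 96.1, 79.6 and 42.1. Lung was below spleen in all of these, and the fasting lung value was the lowest of each.

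T cell and cytotoxic genes followed. At Cd247, which encodes the zeta chain of the T cell receptor complex, a region 3 bp from the start ranked 88.1, 92.5, 85.4 and 30.9. Bcl11b ranked 84.8, 87, 78.4 and 50.1 in an intron. Il7r ranked 89.7, 92.2, 51.7 and 50.1, so that, unlike Cd247, its fed and fasting lung values lay close together. Klrd1, encoding the NK receptor chain CD94, ranked 93.7, 91.9, 48.8 and 30.9, and Gzmb (granzyme B) ranked 85.6, 81.9, 58.8 and 38.8. Of the B cell, T cell and cytotoxic regions named here, that of Klrd1 lay furthest below spleen in lung.

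Among transcription factors, the strongest Bach2 region, in an intron at chr4:32423751-32424048, ranked 87.8, 90.6, 75.4 and 82. It was 1 of 483 regions whose lung rank was higher in fasting. Ikzf3, encoding Aiolos, ranked 89.1, 88.3, 55.2 and 60, and Prdm1, encoding Blimp-1, ranked 93.4, 93.8, 60.8 and 57.1. For Irf8, a factor of dendritic cells and monocytes, the region with the PU.1 match ranked 82.4, 82.7, 60.6 and 22.6. Foxp1 had a region 293 bp from a start, with ETS core, RUNX and T-box matches, that ranked 94, 94.7, 75.2 and 53.9.

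Several receptor genes differed widely between the lung libraries. The chemokine receptor gene Cxcr4 had no region in its body, and its 5 regions lay 13709 to 103860 bp from its start. The strongest, at chr1:128675506-128676106, ranked 93.6, 97.6, 73.9 and 70.9, whereas a second ranked 88.9, 90.8, 83.7 and 26. Il2ra, encoding the interleukin 2 receptor chain CD25, had an intronic region at 94, 93.6, 79.6 and 47.7. Tlr1 had a region 9781 bp away at 96.5, 97.4, 77.6 and 47.7, and Tlr7, a sensor of single-stranded RNA, had an intronic region at 88.3, 89.4, 62.6 and 20.3.

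The endothelial and platelet genes were few. The intronic Vwf region (chr6:125594813-125595144), in the gene of von Willebrand factor, ranked 89.2, 84.1, 75.8 and 81.4. Cdh5, encoding VE-cadherin, had a region 61934 bp away at 85.5, 82.2, 77.5 and 38.8, and both held a PU.1 match. Itgb3, the platelet integrin beta 3 gene, had an intronic region at 95.4, 94.2, 66.5 and 49.6. The Twist1 region lay 185274 bp from that gene in an intron of Hdac9 and ranked 94.3, 95.8, 32.1 and 13.8.

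Promoter regions held genes of lymphocyte signalling and of general cell biology alike. Slamf1, encoding the lymphocyte receptor CD150, had its region 4 bp from the start, at ranks of 95.1, 97.7, 85.8 and 66.1. Lax1, an adaptor that restrains lymphocyte receptor signalling, had a RUNX match and ranked 94.9, 96.7, 88.5 and 64.7. Nek6, a mitotic kinase gene, ranked 94.8, 95.9, 76.8 and 78.1, with PU.1 and IRF matches 47 bp from a start. Mmp15, a membrane-bound matrix metalloproteinase gene, was the most even of the 10 strongest promoters, with 85.6, 90, 84.9 and 85.4. The other promoters among the 10 strongest belonged to Gga2, Mapk12, Flna, Stard10, Rassf6 and Insig2, with mean ranks of 85.8 to 88.5.

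Motif letters were searched on both strands within 100 bp of the summit, for 22 motifs. The PU.1 letters GAGGAAGT occurred in 193 of the 2025 regions (9.53%, exact binomial 95% interval 8.29 to 10.9%), against 2.14% of all merged regions, 4.91% of regions also open elsewhere, 5.88% of regions private to spleen and 2.61% of those private to lung. AGGAAGT, which counts every PU.1 match again, occurred in 23.6% against 6.83% of all merged regions. It occurred in 12.8% of regions also open elsewhere, 13.8% of regions private to spleen and 9.82% of those private to lung. The RUNX letters TGTGGTT occurred in 270 regions (13.3%, 11.9 to 14.9%) against 4.75%, 6.7% in spleen-private and 5.88% in lung-private regions. ETS core and RUNX letters met in 55 regions, and 692 (34.2%) held either. The IRF letters GAAANNGAA occurred in 8.49% against 5.29%, and in 5.41% of spleen-private and 6.73% of lung-private regions. The overlapping ETS-IRF composite GGAANNGAA occurred in 8.74% against 5.72%, and in 7.03% of spleen-private and 6.42% of lung-private regions. Regions also open elsewhere held IRF letters in 5.64% and the composite in 6.59%. Of the 28 pairs of tissues, the spleen and lung pair had the highest share for the PU.1, ETS core, RUNX and IRF letters, with white adipose and spleen next for the first 3. That pair had only 102 regions. The private regions and those also open elsewhere differed from the shared regions in strength and width, as given above.

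Further excesses were found for T-box AGGTGTGA (2.17% against 1.07%), NF-kB GGGANTTTC (1.33% against 0.678%), the promoter type of ETS site CCGGAAGT (0.642% against 0.34%), FOX TGTTTAC (3.95% against 2.92%) and the E2A type of E-box CAGCTG (16.2% against 14.5%). These excesses are over all merged regions. FOX letters were more frequent still in regions private to lung, at 9.03%. The promoter type of ETS site was more frequent in regions also open elsewhere, at 1.89%. E-box letters occurred in 15.9% of those regions and in 15.8% of regions private to spleen. T-box letters occurred in 1.64% of regions private to spleen. Shares lay below those of all merged regions for TEAD CATTCCA (2.02% against 3.59%), HNF4 CAAAGTCCA (0.0988% against 0.536%) and HNF1 GTTAATNAT (0.148% against 0.703%). They were also low in regions private to spleen, at 1.9%, 0.209% and 0.196%. The interval held the share of all merged regions for AP-1 TGANTCA, C/EBP TTGCNNAA, EBF1 CCCNNGGGA, GATA factors (the letters AGATAA), TCF/LEF CTTTGAT, SOX AACAAT, NKX2 CACTTGA, MEF2 CTAAAAATA and CTCF AGGGGGCGC. EBF1 letters stood at 3.6% against 3.95%, although Ebf1 itself was among the genes with most regions. Intervals cover counting error over regions, and a match is a run of letters, not a measured binding site.

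**Figure D4:**
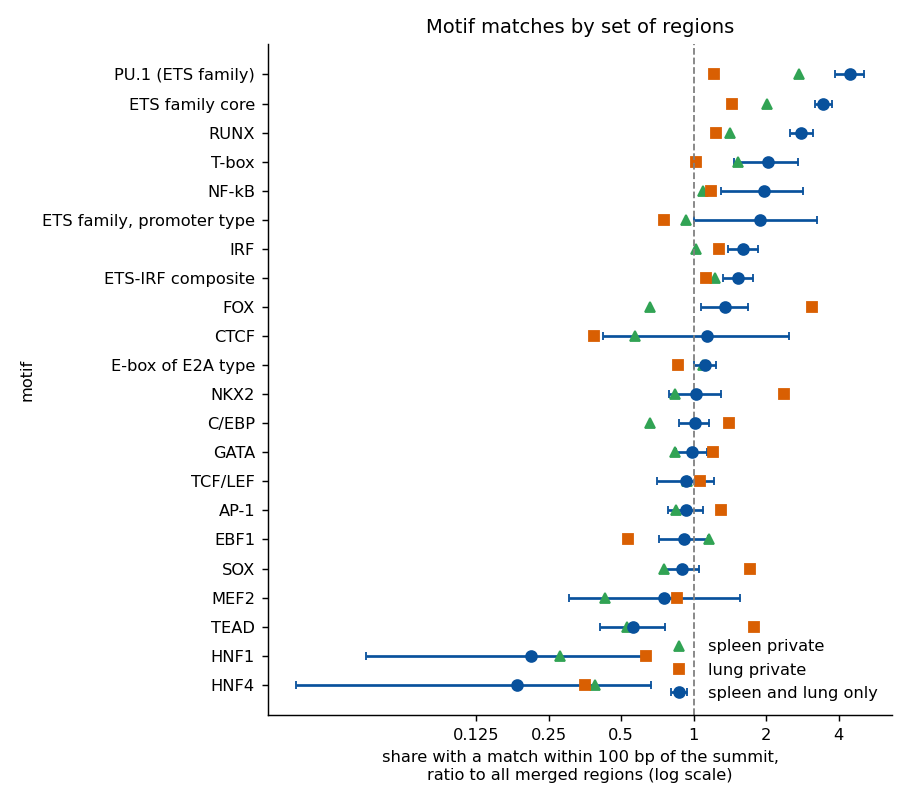
Share of regions with a match to each of 22 motifs within 100 bp of the summit, as a ratio to the share of all merged regions (log scale, dashed line at 1). Circles with 95% exact binomial intervals are the regions shared only by spleen and lung, triangles those private to spleen and squares those private to lung. PU.1 stands highest, at 4.45 times the share of all merged regions.

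By rank, a small group leaned to lung. Both lung ranks exceeded both spleen ranks for 87 regions (4.3%). PU.1 letters occurred in 0 of these 87 (exact binomial upper bound 4.15%), against 10.9% (9.44 to 12.5%) of the 1632 regions that leaned to spleen. ETS core letters occurred in 9.2% (4.05 to 17.3%) against 25.9% (23.7 to 28.1%). AP-1 letters occurred in 12 of the 87 regions, 13.8% (7.34 to 22.9%), against 6.31% (5.18 to 7.6%). RUNX letters occurred in 11.5% (5.65 to 20.1%) against 14.1% (12.4 to 15.9%). The intervals overlapped for AP-1 and for RUNX. The strongest of them lay 88445 bp from Man1a, a mannosidase gene of protein glycosylation, at chr10:53888140-53889017 and ranked 83.5 and 70.6 in fed and fasting spleen and 92.8 and 93.1 in fed and fasting lung. The largest lean was near Commd9 (chr2:101976143-101977316, 90572 bp away in an intron of Ldlrad3), with 13.8, 3.8, 72 and 77.3. At the opposite end, a region 76591 bp from Pik3cg, the leukocyte phosphoinositide 3-kinase gamma gene, ranked 91.8, 93.4, 6.24 and 13.8 and held PU.1, RUNX and EBF1 matches.

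Between fed and fasting, the spleen ranks of the 2025 regions changed little at the median, while the lung ranks were mostly lower in fasting. All of these regions had to be significant in both states, so losses of a peak are not among them. The median rank change, fasting minus fed, was 0.357 percentile points in spleen and −17.1 in lung, and 1542 regions (76.1%) ranked lower in fasting lung. On the fold scale the median log2 ratio of fasting to fed was −0.07 in spleen and −0.18 in lung. Regions of the 4 libraries also open elsewhere changed by −0.199 points in spleen and −1.11 in lung, with log2 fold ratios of −0.14 and −0.03. Regions private to lung moved the other way from the shared regions, with a median rank change of 6.7 and a log2 fold ratio of 0.14. In lung, the same contrast of shared and private regions held for presence and absence. Of the regions significant in both spleen libraries and absent from the other 12 lists, 3670 were significant in fed lung with no fasting lung peak, and 402 in fasting lung with no fed lung peak. For regions found in lung alone the counts were 8753 and 11028. By q, the fasting lung list reached further down, to −log10 q 2.88 against 3.26 in fed lung. Its background tag level was lower, at 7.14 against 8.92 tags expected at a summit. By fold, the fasting lung list ended higher. A region at background level entered it from a fold enrichment of 2.7, against 2.52 in fed lung.

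**Figure D5:**
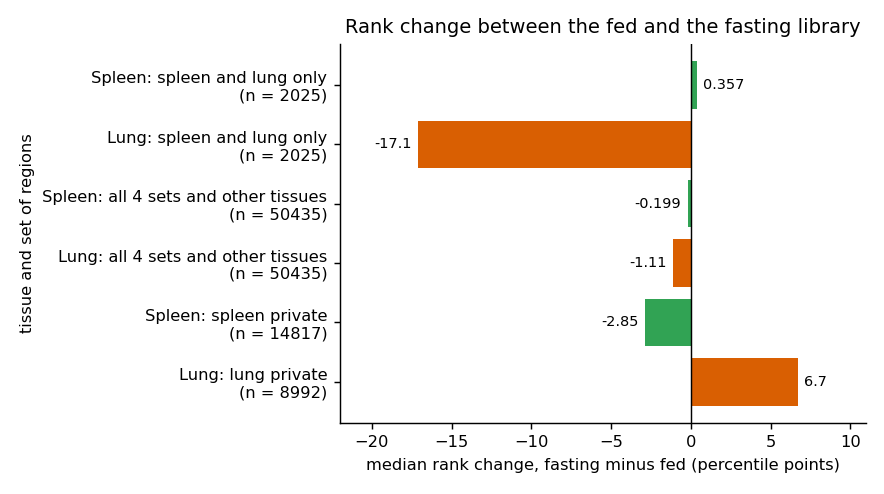
Median rank change between the fed and the fasting library (percentile points, fasting minus fed; 1 library each) for 3 sets of regions in each tissue, with spleen in green and lung in orange. The regions shared only by spleen and lung fell by 17.1 points in lung, where regions private to lung rose by 6.7.

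Promoter ranks of the marker lists moved in the same libraries. All 11 leukocyte lists averaged lower in fasting than in fed lung, against 5 of 11 in spleen. The T cell list went from 81.7 to 51.7, the NK and cytotoxic list from 52.5 to 26.7, and the B cell list from 83.7 to 71.3. The pan-leukocyte list went from 89.8 to 83.2. Of the 9 other lists, 6 were also lower in fasting lung, among them striated muscle, from 62.2 to 54.1. The endothelium list went from 82.1 to 84.3, the lung epithelium list from 80.5 to 85.5 and the hepatocyte list from 21.3 to 25.5. With 1 pooled library per state, the part of cell composition, fasting, depth or library preparation in these differences cannot be told apart. Single regions ran both ways, as the Mical3 region at chr6:120957267-120957869 ranked 74 in fed and 4.29 in fasting spleen and 72.8 and 9.67 in lung. A region 710 bp from Fcmr, the gene of the Fc receptor for IgM, ranked 13.4 in fed and 69.1 in fasting spleen and 20.7 and 40.8 in lung.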

How the data were processed

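ATAC-seq libraries of 8 tissues in 2 states, 1 library each, were analysed. According to the study's methods and the submitters' processing notes, reads were trimmed, aligned to GRCm38 with Bowtie2, stripped of duplicates, and peaks were called with MACS2 per library. Versions are not given in the sources used here. The deposited values are the fold enrichment (a ratio to local background) and the −log10 p and −log10 q values that the authors' peak caller wrote for each peak. The deposited lists were called at p under 0.01 and capped in length.

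From these files, rows with the same coordinates were collapsed to the smallest p (149835 to 239804 regions per library), and regions with −log10 q of at least 2 formed the set of a library. Ranks are percentiles by p within a library. Fold and p were solved for whole tags at the summit, which gave whole numbers (within 0.01) for 100% of regions, and a background of 2.8 to 12.8 tags per summit. This is the only measure of depth, since read totals were not used here. The summit of a merged region was that of its highest-ranked set region, and GENCODE vM21 gave starts and gene parts. The named genes were the 10 regions with the highest mean rank, up to 3 regions per gene list, the 10 strongest promoter regions, the genes with most regions, the extremes of the differences between tissues and states, and the regions next to the threshold, named in part here. The 20 gene lists of 12 genes and the members were chosen with earlier results of these data known. The functions were tested on simulated data, with 5 of 5 recovering the known answers. Computation used numpy 2.4.6, pandas 2.3.3 and scipy 1.17.1 under Python 3.11.15, and matplotlib 3.10.9. An exact permutation test over tissues was planned for the recovery between states, but its outcome is largely set by how the regions were chosen, so that its p is not given. Alternatives covered thresholds, overlap, libraries, windows and gene assignment.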

Additional observations from a re-analysis of the deposited data

Results flagged for a closer look

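The change of rank between states differed between the tissues: the median, fasting minus fed, was 0.357 in spleen and −17.1 in lung over the 2025 regions. The difference was not tested, since each tissue and state had 1 library.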

How the results depend on the processing

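With 1 library per tissue and state, no error between animals can be given, and absence means no listed peak at the depth and length of that list. The number of regions was 2025. It was 596 with q under 1e-06 in the 4 libraries, 64 with the 50000 strongest regions of each list as its set, 874 when the set regions had to cover 50% of the merged region in each library, 11353 with fed libraries only and 6400 with fasting libraries only. Leaving out 1 of the 4 libraries gave 2530 to 5741, the highest without fasting lung. The share within 3000 bp of a start, 24.5%, was 26.7% at q under 1e-06, 11.5% for a 1000 bp window and 16.7% for protein-coding starts only. It was 24.3 to 24.8% when 1 library was left out. Leukocyte list genes with a region numbered 47, but 30 (22.9%, against 4.5% of all coding genes) when the region had to lie in the gene or within 3000 bp of a start. Within 100000 bp of a start they numbered 64 (48.9%, against 19.1%), as did 8 of the 48 genes of the left-out tissues. The PU.1 ratio to all merged regions, 4.45, was 5.54 within 50 bp and 3.16 within 250 bp of the summit, and that of RUNX, 2.81, was 3.27 and 1.88. The FOX excess did not hold in either of these windows, nor NF-kB within 50 bp, the promoter type of ETS site within 250 bp, or the E-box away from promoters. The HNF4 share was no longer below that of all merged regions in either window, nor the HNF1 share within 50 bp. The excess of spleen and lung over the other tissues in the recovery between states was 52.9 to 55.5 percentage points for the fed choice and 65.1 to 88.6 for the fasting choice under the 3 alternatives tried for each. No paired analysis was possible because each tissue had 1 fed and 1 fasting library, which leaves a single pair in spleen and in lung.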
